A study of Mus musculus with 12 samples.

Results

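The 36 genes described here mark the endothelium of the liver: 15 are typical of sinusoidal endothelial cells and 21 are shared by blood vessels in general. They were taken by gene symbol from 23185 probe sets that carry a single symbol, and all 36 were found. Expression was measured in whole livers of mice killed 5 days after birth, with 3 arrays in each of 4 groups. LKB1 KO livers (Cre positive) had a liver-specific deletion of Lkb1 (gene symbol Stk11), and LKB1 WT livers (Cre negative) were their controls. RbpJk KO livers (Cre positive) had the Notch pathway inactivated in the liver through RbpJk (gene symbol Rbpj), and RbpJk WT livers (Cre negative) were their controls. The sources used here name neither the promoter that drove Cre in these pups nor their strain. The deletions are described as specific to the liver as an organ, so whether they reached endothelial cells was not tested. Cre and the deletion occur together in each KO group and cannot be told apart. All 12 livers were labelled male.

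Sinusoidal endothelial cells line the capillaries of the liver. They carry open pores without a diaphragm and lack a continuous basement membrane, and their scavenger receptors clear waste molecules from the blood. Other vessels of the liver, such as the portal and central veins and the hepatic arteries, share with them the receptors for VEGF and the angiopoietins and the proteins that join endothelial cells to each other. Lkb1 is a kinase that activates Ampk and its relatives, and RbpJk is the transcription factor that carries Notch signals to DNA.

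The targeted genes were checked first. Stk11 had log2 expression values of 7.03, 6.85 and 6.38 in LKB1 KO livers, against 7.58, 7.53 and 7.53 in LKB1 WT livers, and fell by 0.80 ± 0.15 on the log2 scale (SE; limma, adjusted p = 0.0224). Rbpj had values of 4.61, 4.48 and 3.92 in RbpJk KO livers, against 4.84, 5.05 and 5.31 in RbpJk WT livers. All 3 RbpJk KO arrays lay below all 3 RbpJk WT arrays, with a log2 change of -0.73 ± 0.19 that did not pass the test (adjusted p = 0.0724). Although all livers were labelled male, Xist, a transcript found in female cells, had values of 10.63 to 10.75 on 6 arrays and of 3.81 to 5.09 on the other 6. The high arrays were 1 of 3 in LKB1 KO livers (replicate 3), 3 of 3 in LKB1 WT livers, 0 of 3 in RbpJk KO livers and 2 of 3 in RbpJk WT livers (replicates 1 and 3). Eif2s3y, a gene of the Y chromosome, was at 2.30 to 2.94 on these 6 arrays and at 7.23 to 7.95 on the other 6. Kdm5d and Uty, also on the Y chromosome, split the arrays in the same way. The male label thus does not match the expression of these 6 livers, whose values are those of female tissue. The RbpJk WT replicate 1 array also had a level of 10.44 for Ctrb1, an enzyme of the exocrine pancreas, against at most 6.75 on the other arrays. Within groups, 0 of the 36 endothelial genes differed between arrays with high and low Xist at an unadjusted p under 0.05, as 359 genes that were lower and 623 that were higher did among all 23185. That comparison rests on LKB1 KO and RbpJk WT livers, the groups that hold both classes, each with 3 arrays. All endothelial genes were measurable, with means over the 12 arrays between 5.34 (Sox17) and 9.25 (Gpr182) on a scale where the array medians over all genes were 4.84 to 5.01. In whole tissue, fewer endothelial cells and less RNA per endothelial cell cannot be told apart.

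Promoter sequences from RefSeq, on the mouse build GRCm38.p6, were matched by symbol to 19 of the 36 genes, with 23 windows because some genes have several starts. Each window holds 250 bases before the start of transcription and 50 after it. Those of Stab2 (chr10:87007893-87008192, minus strand), Kdr (chr5:75978406-75978705, minus strand), Robo4 (chr9:37401722-37402021, plus strand) and Ehd3 (chr17:73804591-73804890, plus strand) are shown, chosen by their values among the 36 genes. Stab2 and Kdr had among the smallest p-values of the LKB1 arm, Robo4 had the second highest change of the RbpJk arm, and Ehd3 had the lowest mean change over both arms. Capitals mark the letters of AGGAAG or its reverse CTTCCT, a core bound by ETS factors such as Erg, and of TGGGAA or its reverse TTCCCA, the core bound by RbpJk.
Stab2: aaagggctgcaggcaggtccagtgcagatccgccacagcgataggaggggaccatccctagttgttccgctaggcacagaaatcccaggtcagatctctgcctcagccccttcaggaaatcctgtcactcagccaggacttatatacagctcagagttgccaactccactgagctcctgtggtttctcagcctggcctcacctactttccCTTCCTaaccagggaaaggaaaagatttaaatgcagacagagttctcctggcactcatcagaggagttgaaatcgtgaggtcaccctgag
Kdr: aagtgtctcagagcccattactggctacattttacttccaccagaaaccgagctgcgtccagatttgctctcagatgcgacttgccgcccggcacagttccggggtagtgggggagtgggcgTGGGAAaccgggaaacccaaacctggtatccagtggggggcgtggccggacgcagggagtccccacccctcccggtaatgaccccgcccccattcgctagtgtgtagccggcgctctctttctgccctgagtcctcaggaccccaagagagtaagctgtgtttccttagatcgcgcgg
Robo4: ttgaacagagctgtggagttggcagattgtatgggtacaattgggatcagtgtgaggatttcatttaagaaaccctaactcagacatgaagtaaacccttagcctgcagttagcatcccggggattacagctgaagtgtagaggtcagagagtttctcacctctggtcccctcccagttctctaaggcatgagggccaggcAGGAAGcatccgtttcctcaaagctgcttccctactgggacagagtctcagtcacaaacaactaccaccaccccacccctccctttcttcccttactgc
Ehd3: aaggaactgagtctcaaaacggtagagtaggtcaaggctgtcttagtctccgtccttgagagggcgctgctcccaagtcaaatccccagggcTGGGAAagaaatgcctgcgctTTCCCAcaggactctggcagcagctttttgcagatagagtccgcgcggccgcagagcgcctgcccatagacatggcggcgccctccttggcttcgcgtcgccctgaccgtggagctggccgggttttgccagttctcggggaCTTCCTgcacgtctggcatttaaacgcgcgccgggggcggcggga
The ETS letters occurred in 15 of the 23 windows (65.2%), against 35.4% of all 32851 mouse windows of the same length. The RbpJk letters occurred in 5 of the 23 windows (21.7%), against 25.6% of all windows. The window of Kdr held the RbpJk letters and not the ETS letters, those of Stab2 and Robo4 held the ETS letters alone, and that of Ehd3 held both. AGATAA or its reverse TTATCT, a core bound by GATA factors, occurred in 2 of the 23 windows (8.7%), against 11.2% of all windows. The ETS and RbpJk letters share the bases GGAA, and a match to such short letters is a description, not a binding site.

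In LKB1 KO livers, endothelial genes lay slightly but widely below LKB1 WT livers. The fitted log2 change was below 0 for 34 of the 36 genes (52.6% of all genes), with a median of -0.27 against -0.01 over all genes. None of the 36 passed the test in limma at an adjusted p under 0.05, a threshold passed by 0.962% of all genes. At an unadjusted p under 0.05, 19 were lower (4.31% of all genes) and 0 were higher. The paper names an unpaired t-test for its other measurements, but no test for its arrays. In such a t-test, 14 were lower at an unadjusted p under 0.05 (5.15% of all genes). After Benjamini-Hochberg adjustment that test called 0 of all 23185 genes. For 22 of the 36, all 3 LKB1 KO arrays lay below all 3 LKB1 WT arrays (8.6% of all genes), and for 0 of them above. The changes were small, between -0.54 and 0.10 on the log2 scale, and the lowest, that of Fcgr2b, corresponds to a level 1.45-fold lower in LKB1 KO livers. With 3 arrays against 3, an exact permutation test of a single gene cannot go below p = 0.1.

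**Figure D1:**
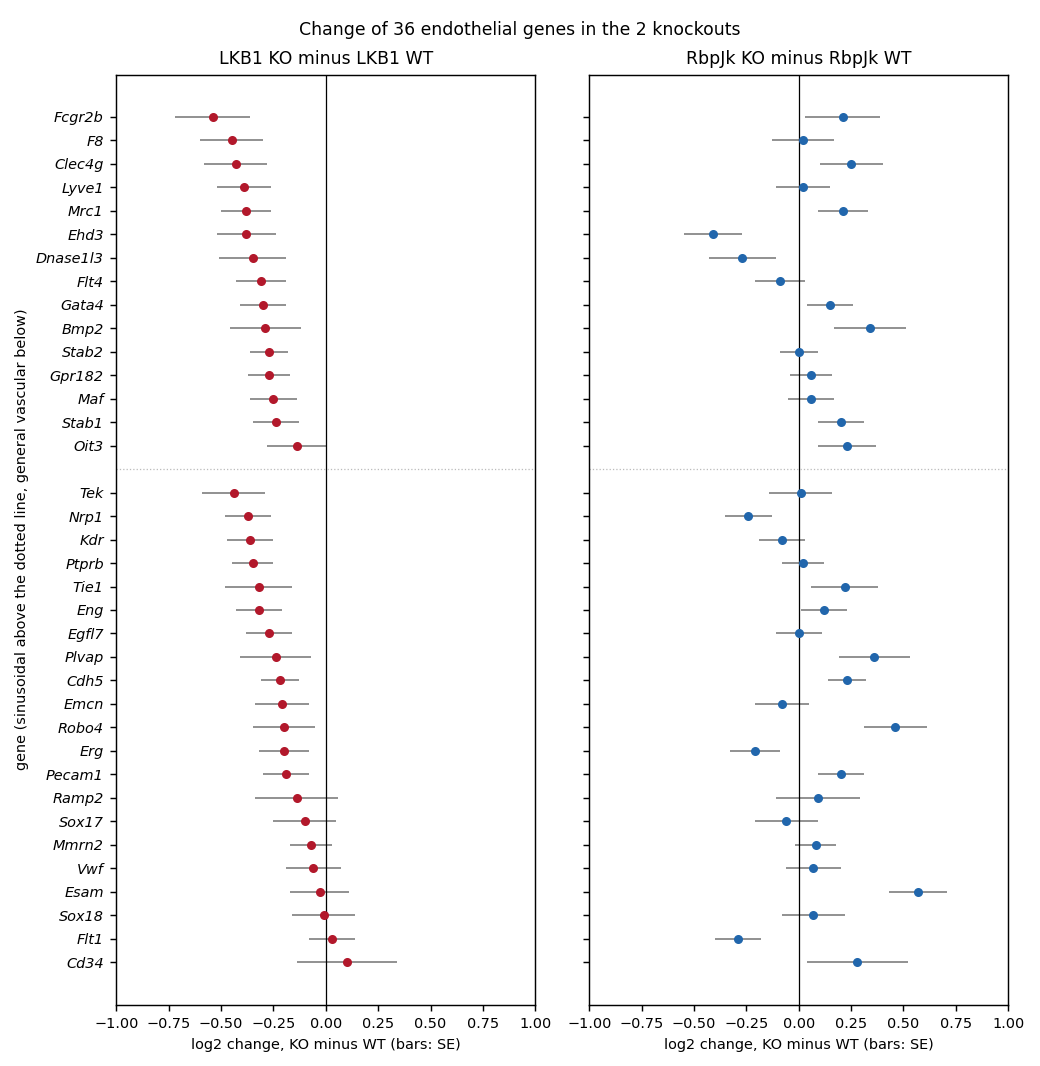
Log2 change (x axis, KO minus WT) of each of the 36 endothelial genes (y axis) in the LKB1 arm on the left and the RbpJk arm on the right; points are fitted changes from limma, bars are SE, and genes above the dotted line are the sinusoidal ones. In the LKB1 arm 34 of 36 points lie left of 0, and in the RbpJk arm 27 of 36 lie right of it.

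All 15 sinusoidal genes had changes below 0 in LKB1 KO livers (52.6% of all genes), with a median of -0.31. For 12 of them, all LKB1 KO arrays lay below all LKB1 WT arrays (8.6% of all genes). Among the scavenger receptors, Stab2, which takes up hyaluronan and other waste, had values of 8.88, 8.84 and 8.85 in LKB1 KO livers, against 9.13, 9.10 and 9.14 in LKB1 WT livers. The arrays of each group were nearly identical, and the groups did not overlap. Its log2 change was -0.27 ± 0.09 (adjusted p = 0.284). Mrc1, the mannose receptor, had values of 7.71, 7.91 and 7.94 in LKB1 KO livers, against 8.24, 8.25 and 8.21 in LKB1 WT livers. Every LKB1 KO value was below every LKB1 WT value, with a log2 change of -0.38 ± 0.12 (adjusted p = 0.271). Lyve1, a hyaluronan receptor, had values of 8.0, 8.42 and 8.30 in LKB1 KO livers, against 8.58, 8.80 and 8.52 in LKB1 WT livers. The groups were again apart, and the log2 change was -0.39 ± 0.13 (adjusted p = 0.307). Fcgr2b, the inhibitory Fc receptor that clears immune complexes, had values of 7.09, 6.72 and 6.54 in LKB1 KO livers, against 7.50, 7.38 and 7.09 in LKB1 WT livers. The highest LKB1 KO array met the lowest LKB1 WT array, and the log2 change was -0.54 ± 0.18 (adjusted p = 0.31). The group was completed by others: the C-type lectin Clec4g had a change of -0.43 ± 0.15 (adjusted p = 0.343) and Stab1, the relative of Stab2, one of -0.24 ± 0.11 (adjusted p = 0.621).

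Other products of sinusoidal cells followed the same direction. F8, coagulation factor VIII, which is made chiefly by these cells, had values of 6.65, 7.08 and 7.07 in LKB1 KO livers, against 7.21, 7.38 and 7.55 in LKB1 WT livers. The groups did not overlap, and the log2 change was -0.45 ± 0.15 (adjusted p = 0.286). Ehd3, a protein of endocytic membranes, had a change of -0.38 ± 0.14 (adjusted p = 0.363). The values for Dnase1l3, a secreted DNase, and Gpr182, an atypical chemokine receptor, were -0.35 ± 0.16 and -0.27 ± 0.10. Bmp2, which acts on hepatocytes to raise hepcidin, had a change of -0.29 ± 0.17, and Oit3 the smallest of the sinusoidal genes, -0.14 ± 0.14 (adjusted p = 0.958). Of the transcription factors, Gata4, which is needed for the sinusoidal type of endothelium, had a change of -0.30 ± 0.11 (adjusted p = 0.347), and Maf one of -0.25 ± 0.11. Both had all LKB1 KO arrays below all LKB1 WT arrays.

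The receptors for VEGF and the angiopoietins gave the lowest p-values of the LKB1 arm. Nrp1, a co-receptor of VEGF, had values of 6.55, 6.60 and 6.66 in LKB1 KO livers, against 6.94, 7.12 and 6.85 in LKB1 WT livers. No LKB1 KO array reached any LKB1 WT array, and the log2 change was -0.37 ± 0.11 (adjusted p = 0.199). Kdr, the main signalling receptor of VEGF, had values of 7.69, 7.48 and 7.42 in LKB1 KO livers, against 7.88, 7.96 and 7.84 in LKB1 WT livers. Its groups did not overlap, and its change was -0.36 ± 0.11 (adjusted p = 0.202). Ptprb, a phosphatase that restrains the receptor Tek, had values of 7.50, 7.37 and 7.52 in LKB1 KO livers, against 7.79, 7.87 and 7.76 in LKB1 WT livers. The gap between its groups was wider than the spread within either, and its change was -0.35 ± 0.10 (adjusted p = 0.211). Tek, the angiopoietin receptor, had a change of -0.44 ± 0.15 (adjusted p = 0.324), its relative Tie1 one of -0.32 ± 0.16 (adjusted p = 0.677), and Flt4, the receptor of VEGF-C that sinusoids share with lymphatic vessels, one of -0.31 ± 0.12 (adjusted p = 0.394). Flt1, which binds VEGF with high affinity and signals weakly, was the exception in this group: it had values of 6.71, 6.64 and 6.58 in LKB1 KO livers, against 6.62, 6.70 and 6.52 in LKB1 WT livers. The groups overlapped throughout, and the change was 0.03 ± 0.11.

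Among the remaining general vascular genes the values were closer to 0. Over all 21 the median was -0.20, and 10 had all LKB1 KO arrays below all LKB1 WT arrays (8.6% of all genes). The 3 other receptors were Eng, a co-receptor for BMP9 (-0.32 ± 0.11, adjusted p = 0.336), Robo4, which stabilises vessels (-0.20 ± 0.15), and Ramp2, part of the adrenomedullin receptor (-0.14 ± 0.20). Cdh5, the cadherin of endothelial junctions, had a change of -0.22 ± 0.09 (adjusted p = 0.508), and Egfl7, a secreted endothelial protein, one of -0.27 ± 0.11 (adjusted p = 0.485). Of the other surface and secreted proteins, Plvap, of the diaphragms of fenestrae and caveolae (-0.24 ± 0.17), the sialomucin Emcn (-0.21 ± 0.13) and the junction protein Pecam1 (-0.19 ± 0.11) lay lower than the rest. Mmrn2, an endothelial matrix protein (-0.07 ± 0.10), Vwf, the platelet-binding factor that sinusoids largely lack (-0.06 ± 0.13), the junction protein Esam (-0.03 ± 0.14) and the sialomucin Cd34, which is also carried by blood progenitors (0.10 ± 0.24), were within 1 SE of 0. The endothelial transcription factors Erg, Sox17 and Sox18 had changes of -0.20 ± 0.12, -0.10 ± 0.15 and -0.01 ± 0.15.

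**Figure D2:**
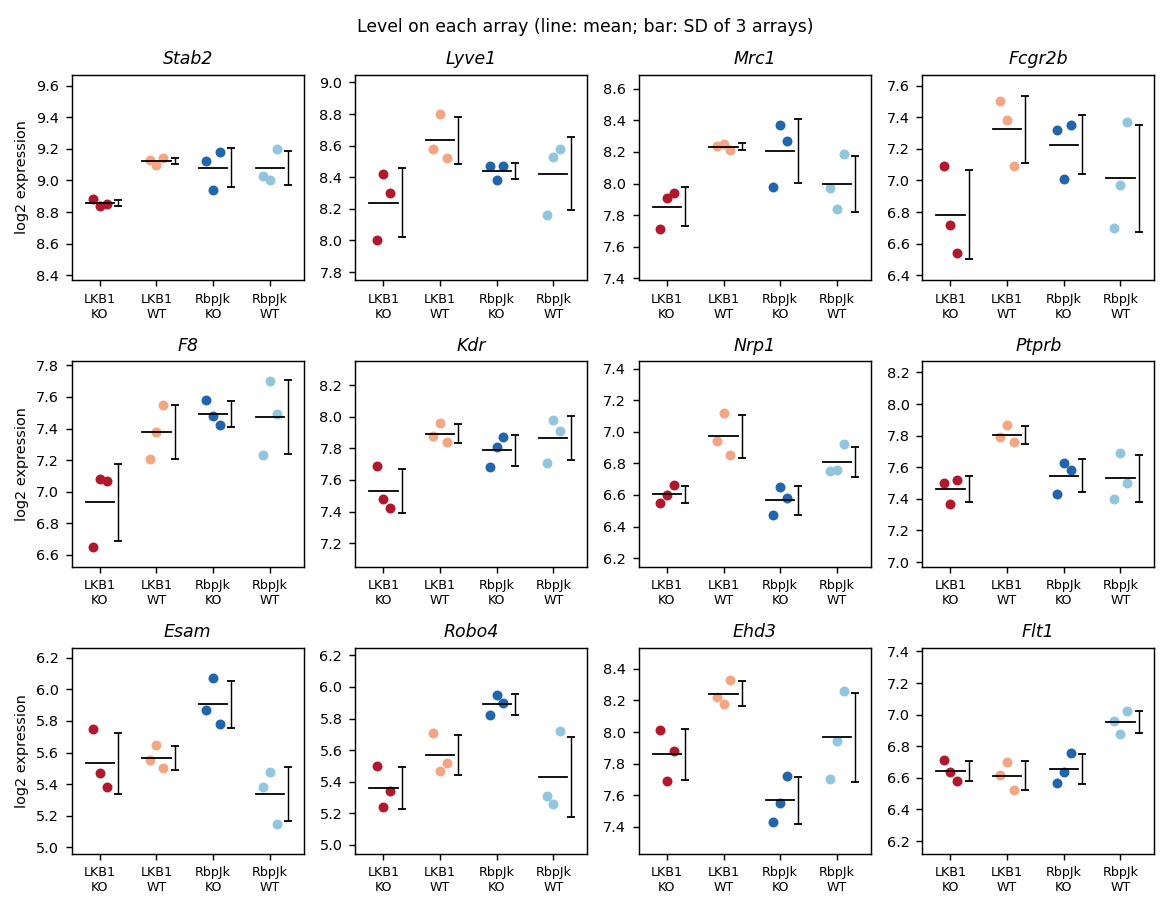
Log2 expression (y axis) of 12 of the 36 endothelial genes on each array in LKB1 KO, LKB1 WT, RbpJk KO and RbpJk WT livers (x axis); points are arrays, lines are group means and bars are the SD of 3 arrays. Stab2, Kdr, Nrp1 and Ptprb show LKB1 KO arrays apart from LKB1 WT arrays, while Esam, Robo4 and Flt1 separate RbpJk KO from RbpJk WT.

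The lower values in LKB1 KO livers were spread over all 3 arrays. The mean over the 36 genes was 7.12, 7.03 and 7.03 on the LKB1 KO arrays, against 7.34, 7.36 and 7.22 on the LKB1 WT arrays. The lowest array of the LKB1 KO group was replicate 1 for 9 genes, replicate 2 for 13 and replicate 3 for 14. In the LKB1 WT group, replicate 3 was the lowest for 24 genes. Leaving out LKB1 KO replicate 2 or LKB1 WT replicate 2 reduced the count of 19 genes lower at an unadjusted p under 0.05 to 11 and 12. LKB1 KO replicate 3, the array of that group with high Xist like the LKB1 WT arrays, lay below all 3 of them for 31 of the 36 genes, against 26.4% of all genes. With that array alone against the 3 LKB1 WT arrays, the difference was below 0 for 36 of 36 genes, with a median of -0.28 against 0.00 over all genes. This sets a single liver against 3, with the spread assumed to be that of the groups that kept 3 arrays. With the Xist class as a covariate over all arrays, 34 of 36 changes were below 0. At an unadjusted p under 0.05 in that limma fit, 13 genes were lower (3.63% of all genes), against 19 without the covariate. All 3 LKB1 WT arrays but only 1 of 3 LKB1 KO arrays had high Xist, so class and knockout can barely be told apart in this arm.

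Markers of some other liver cells also had changes below 0 in LKB1 KO livers. The 11 macrophage and Kupffer cell markers all had changes below 0 (52.6% of all genes), with a median of -0.39. Of them, 0 passed the test and 6 were lower at an unadjusted p under 0.05 (4.31% of all genes). For 6 of the 11, all LKB1 KO arrays lay below all LKB1 WT arrays (8.6% of all genes). Their summed level, on the log2 scale, was 11.31 to 11.42 in LKB1 KO livers and 11.61 to 11.73 in LKB1 WT livers, and no marker was near 0 on any array. The largest of these differences was that of the Kupffer cell lectin Clec4f, with values of 7.70, 7.75 and 8.01 in LKB1 KO livers, against 8.41, 8.31 and 8.32 in LKB1 WT livers, and a log2 change of -0.53 ± 0.15 (adjusted p = 0.178). The 7 hepatocyte markers had a median of -0.10, with a summed level of 15.09 to 15.10 in LKB1 KO livers and 15.16 to 15.20 in LKB1 WT livers. The 3 B cell markers had a median of -0.42, with 0 past the test and 2 lower at an unadjusted p under 0.05 (4.31% of all genes). Their summed level was 6.62 to 7.64 in LKB1 KO livers and 7.34 to 7.65 in LKB1 WT livers. The 4 bile duct markers and the 6 platelet markers had medians of 0.08 and 0.05. Among the 8 stellate cell and fibroblast markers the median was -0.09, with 5 below 0 and 3 above, and Reln passed the test in limma (-0.55 ± 0.11, adjusted p = 0.0297). Erythroid markers, 4 in number, had a median of -0.19, and 0 passed. The part of these in the endothelial values was not tested. Without 6 endothelial genes chosen because other cells of newborn liver also express them (Mrc1, Maf, Fcgr2b, Vwf, Cd34 and Nrp1), the median of the other 30 was again -0.27. This choice is not a full list of shared genes: the other 30 still hold some, such as Esam, which platelets also carry. The part of macrophages and other cells in that median was therefore not tested by leaving the 6 genes out.

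**Figure D3:**
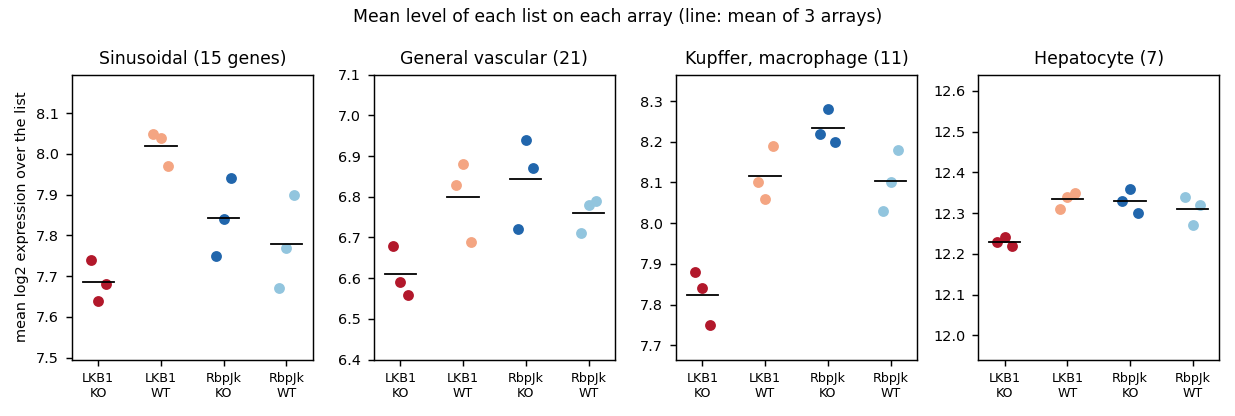
Mean log2 expression (y axis) over 15 sinusoidal genes, 21 general vascular genes, 11 Kupffer cell and macrophage markers and 7 hepatocyte markers on each array of the 4 groups (x axis); points are arrays and lines are means of 3 arrays. The LKB1 KO arrays lie below the LKB1 WT arrays in all 4 panels, at 7.64 to 7.74 against 7.97 to 8.05 for the sinusoidal genes and at 7.75 to 7.88 against 8.06 to 8.19 for the macrophage markers.

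In RbpJk KO livers the endothelial genes lay near or slightly above RbpJk WT livers. The fitted change was above 0 for 27 of the 36 genes (45.1% of all genes), with a median of 0.07 against -0.03 over all genes, and a range of -0.41 to 0.57. None passed the test in limma at an adjusted p under 0.05, as 1.68% of all genes did. The t-test called 0 of all 23185 genes in this arm too. At an unadjusted p under 0.05, 3 genes were higher (7.52% of all genes) and 3 were lower (6.97%). For 5 genes all RbpJk KO arrays lay above all RbpJk WT arrays (8.25% of all genes), and for 2 below (8% of all genes). The summed level of the 11 macrophage markers was 11.75 to 11.86 in RbpJk KO livers and 11.54 to 11.73 in RbpJk WT livers on the log2 scale, with a median change of 0.08, and its part in the endothelial values was not tested.

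The 3 genes higher at an unadjusted p under 0.05 were Esam, Robo4 and Cdh5. Esam, an adhesion molecule of tight junctions that platelets also carry, had values of 5.87, 6.07 and 5.78 in RbpJk KO livers, against 5.38, 5.48 and 5.15 in RbpJk WT livers. Its groups did not overlap, and its log2 change of 0.57 ± 0.14 was the highest of the 36 (1.49-fold, adjusted p = 0.0603). Robo4 had values of 5.82, 5.95 and 5.90 in RbpJk KO livers, against 5.31, 5.26 and 5.72 in RbpJk WT livers. RbpJk WT replicate 3 came close to the RbpJk KO arrays, and the change was 0.46 ± 0.15 (adjusted p = 0.146) with this array and 0.61 without it, which passed the test (adjusted p = 0.0439). Cdh5 had values of 9.11, 9.19 and 9.22 in RbpJk KO livers, against 8.94, 8.98 and 8.91 in RbpJk WT livers. The groups were apart with little spread, and the change was 0.23 ± 0.09 (adjusted p = 0.266). Plvap (0.36 ± 0.17), Bmp2 (0.34 ± 0.17), Clec4g (0.25 ± 0.15) and Oit3 (0.23 ± 0.14) had changes as large as or above that of Cdh5 with a larger SE, and none passed the test.

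The 3 genes lower at an unadjusted p under 0.05 were Ehd3, Flt1 and Nrp1. Ehd3 had values of 7.43, 7.55 and 7.72 in RbpJk KO livers, against 7.70, 7.94 and 8.26 in RbpJk WT livers. The groups met at their edges, and the log2 change was -0.41 ± 0.14 (adjusted p = 0.183). Flt1 had values of 6.57, 6.64 and 6.76 in RbpJk KO livers, against 6.96, 6.88 and 7.02 in RbpJk WT livers. Its groups were apart, with a change of -0.29 ± 0.11 (adjusted p = 0.207). Nrp1 had values of 6.47, 6.65 and 6.58 in RbpJk KO livers, against 6.75, 6.76 and 6.92 in RbpJk WT livers. It was the only gene of the 36 that had all KO arrays below all WT arrays in both arms, with a change here of -0.24 ± 0.11 (adjusted p = 0.33). Dnase1l3 had a change of -0.27 ± 0.16, with overlapping groups. The scavenger receptors, which lay lower in the LKB1 arm, had changes between 0.00 (Stab2) and 0.25 (Clec4g) in the RbpJk arm, with overlapping groups for all 6. RbpJk KO replicate 1 was the lowest of its group for 25 genes, and RbpJk WT replicate 1, the array with the pancreatic enzyme, was the lowest of its group for 19. Without RbpJk WT replicate 1 the median change was 0.03.

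The arms were then compared directly, as the LKB1 effect minus the RbpJk effect. The difference was negative for 33 of the 36 genes (11153 of all 23185 genes), with a median of -0.34 against 0.01 over all genes. None passed the test in limma (0.181% of all genes did), and 18 were lower at an unadjusted p under 0.05, against 5.19% of all genes. That count was 11 without LKB1 WT replicate 2, RbpJk WT replicate 1 or RbpJk KO replicate 3. The lowest p-values were those of Cdh5 (-0.45 ± 0.13, adjusted p = 0.256) and Mrc1 (-0.59 ± 0.17, adjusted p = 0.27). For 26 genes the change was below 0 in the LKB1 arm and above 0 in the RbpJk arm. For 3 of them, Gata4, Eng and Cdh5, all LKB1 KO arrays lay below their controls and all RbpJk KO arrays above theirs, as for 128 of all 23185 genes. The difference was closest to 0 for Erg (0.01 ± 0.17) and Ehd3 (0.02 ± 0.20), whose changes were below 0 in both arms. Averaged over both arms, Ehd3 had a change of -0.40 ± 0.10 (adjusted p = 0.0522) and Nrp1 one of -0.31 ± 0.08 (adjusted p = 0.0591). In that average, 0 of the 36 passed the test against 2.33% of all genes, and 7 were lower at an unadjusted p under 0.05, against 6.4% of all genes.

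The controls of the arms were not at the same level. LKB1 WT livers had higher values than RbpJk WT livers for 25 of the 36 genes (9520 of all 23185 genes). At an unadjusted p under 0.05, 6 were higher (5.24% of all genes), while 0 passed the test in limma (0.699% of all genes did). The median was 0.22 for the sinusoidal genes and 0.03 for the general ones. Clec4g had values of 9.21, 8.95 and 8.99 in LKB1 WT livers, against 8.14, 8.42 and 8.59 in RbpJk WT livers, a log2 difference of 0.67 ± 0.15 (adjusted p = 0.0636). Dnase1l3 (0.58 ± 0.16) and Bmp2 (0.58 ± 0.17) followed, and Flt1 had the lowest value (-0.34 ± 0.11). The mean over the sinusoidal genes was 7.64 to 7.74 on the LKB1 KO arrays and 7.97 to 8.05 on the LKB1 WT arrays, and the range in RbpJk WT livers, 7.67 to 7.90, lay between and overlapped that of LKB1 KO livers. The arm, its colony and any array batch cannot be told apart.

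Within groups, the genes varied together only loosely. Over 12 arrays, after the group means were removed, the median correlation of 630 pairs was 0.22, and 472 pairs were positive. It was 0.25 among sinusoidal genes, 0.29 among general vascular genes and 0.19 between them. Ramp2, Kdr and Oit3 were the most like the others, with median correlations of 0.45, 0.44 and 0.44, and F8 was the least, at -0.25. All pairs share the same arrays and their processing.

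Other endothelial genes were compared in the same way. Of 18 other genes of endothelium in general, 0 passed the test in either arm. In LKB1 KO livers 15 of the 18 had changes below 0 (52.6% of all genes), with a median of -0.17. The lowest p-values of these 18 were those of Myct1 (-0.43 ± 0.15, adjusted p = 0.316) and Adgrf5 (-0.31 ± 0.12, adjusted p = 0.402). In RbpJk KO livers the median was 0.16, and Rasip1, which organises the lumen of vessels, had a change of 0.43 ± 0.15 (adjusted p = 0.203). The 7 ligands of the VEGF and angiopoietin families had medians of -0.04 and -0.02 in the LKB1 and RbpJk arms, and 0 passed the test. Vegfa itself had a change of -0.04 ± 0.11 in the LKB1 arm.

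Signalling lists gave few differences. Of 11 genes of BMP9 and BMP10 signalling, 0 passed the test in either arm, and the lowest p-values were those of the target Id3 (0.41 ± 0.12, adjusted p = 0.126) and the receptor Bmpr2 (0.40 ± 0.13, adjusted p = 0.145) in RbpJk KO livers. Of 14 arterial and Notch genes, 0 passed the test in either arm. Heyl, a Notch target, had values of 5.89, 6.93 and 6.32 in RbpJk KO livers, against 7.0, 7.17 and 7.03 in RbpJk WT livers, with a log2 change of -0.69 ± 0.21 (adjusted p = 0.143). Gja4, a connexin of arterial endothelium, had a change of 0.41 ± 0.15 in LKB1 KO livers (adjusted p = 0.367). Of 8 central vein and angiocrine genes, 0 passed the test in either arm, with Kit at 0.43 ± 0.14 (adjusted p = 0.172) in RbpJk KO livers and Rspo3, a Wnt enhancer, at -0.29 ± 0.14 (adjusted p = 0.639) in LKB1 KO livers. Of 8 genes of caveolae and basement membrane, 0 passed the test in either arm. The basement membrane protein Nid1 came nearest, with values of 8.48, 8.74 and 8.64 in RbpJk KO livers, against 8.17, 8.03 and 8.35 in RbpJk WT livers, and a change of 0.43 ± 0.11 (adjusted p = 0.0587).

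The only gene of these endothelial lists that passed the test within an arm was Selp, P-selectin, which lets leukocytes roll on activated endothelium and is also stored in platelets. Selp had values of 6.54, 6.32 and 6.69 in RbpJk KO livers, against 5.09, 5.12 and 5.28 in RbpJk WT livers, and rose by 1.35 ± 0.15 on the log2 scale (adjusted p = 0.000299). In LKB1 KO livers it had values of 5.00, 5.02 and 4.94, against 4.93, 4.84 and 5.30 in LKB1 WT livers, with a change of -0.04 ± 0.15. The RbpJk KO arrays thus stood above all other arrays. The other leukocyte adhesion genes had changes of 0.62 ± 0.15 (Icam1, adjusted p = 0.0558), 0.43 ± 0.12 (Vcam1, adjusted p = 0.087), 0.66 ± 0.22 (Sele, adjusted p = 0.159) and 0.29 ± 0.25 (Ackr1) in RbpJk KO livers. For 4 of the 5, all RbpJk KO arrays lay above all RbpJk WT arrays (8.25% of all genes). In the same livers the 6 megakaryocyte and platelet markers had a median of -0.04, with a summed log2 level of 9.57 to 9.97 in RbpJk KO livers and 9.95 to 10.08 in RbpJk WT livers. The 11 macrophage markers had a median of 0.08, and 2 of them (Cd5l and Cd68) passed the test as higher and 1 (Adgre1) as lower. The part of other cells in the adhesion values was not tested.

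**Figure D4:**
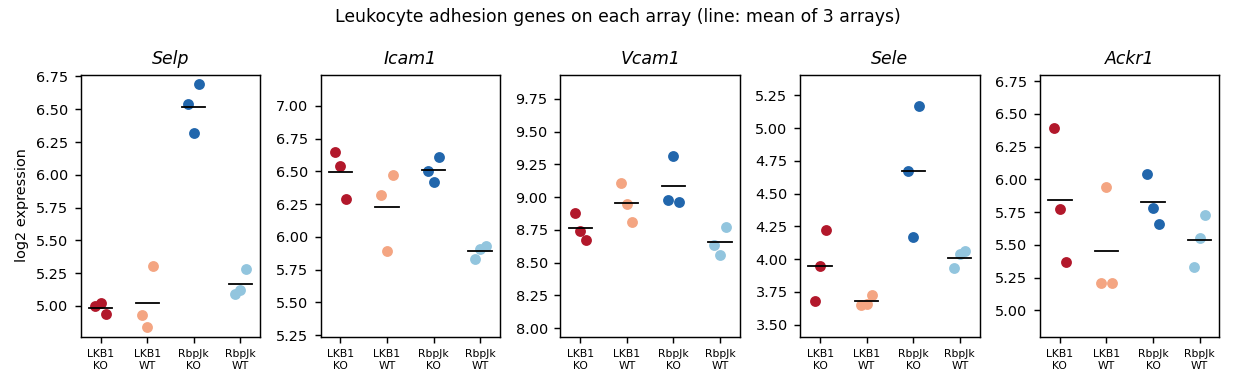
Log2 expression (y axis) of 5 leukocyte adhesion genes on each array of the 4 groups (x axis); points are arrays and lines are means of 3 arrays. The RbpJk KO arrays lie above the RbpJk WT arrays for Selp, Icam1, Vcam1 and Sele, and for Selp they lie at 6.32 to 6.69 against 5.09 to 5.28.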

How the data were processed

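Total RNA of 12 livers (4 groups of 3) was hybridized to Affymetrix Mouse Gene 2.0 ST arrays, and the table the authors deposited holds log2 expression, with 1 probe set per Entrez gene. Expression Console and BRB-ArrayTools are named in the methods and Partek in the submitters' processing notes. For background correction, summarisation and normalization, a method is not given in the sources used here. Depth does not apply to arrays, whose number limits the precision. Of 25206 probe sets, 23185 had a single symbol from RefSeq, 2021 had none, and 0 had several.

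All 12 arrays were fitted by group in limma 3.58.1 (R 4.3.3) with moderated variances following an intensity trend, and p-values were adjusted by Benjamini-Hochberg over all 23185 genes. Tests were two-sided, and a gene passed at an adjusted p under 0.05. The fit was tested on simulated data. Of the 36 genes, values are given per array for the 8 with the lowest p in the LKB1 arm and the 6 in the RbpJk arm. For other lists they are given for genes that passed or came nearest. The 36 genes and 18 other lists (129 of 139 listed genes measured, the targeted and sex-linked genes among them) were chosen with earlier results of these data known. The values of Clec4g between controls, of Clec4f and of Vegfa were chosen after they were seen. Alternatives changed the arrays fitted, variance model, array weights, dim probe sets, normalization, features tested, test, Xist class and each array in turn. Replicates were numbered in accession order and the labels do not say whether pups shared a litter, so p-values measure the spread between these livers only.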

Additional observations from a re-analysis of the deposited data

Results flagged for a closer look

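Selp differed between the arms in its response to the knockouts. The LKB1 effect minus the RbpJk effect was -1.39 ± 0.21 on the log2 scale in limma's test of the interaction (adjusted p = 0.0142), with the 3 RbpJk KO arrays above all 9 others. Without RbpJk KO replicate 3 it was -1.31 (adjusted p = 0.0609). With arrays of 1 Xist class in each arm it was -1.48 (adjusted p = 0.197), from a fit that keeps 1 LKB1 KO and 1 RbpJk WT array and assumes that they vary like the other groups. The adjusted p lay between 0.00767 and 0.197 over all 21 alternatives.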

How the results depend on the processing

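No result reversed. In the LKB1 arm 0 of the 36 genes passed under any of 17 alternatives, and the median stayed between -0.32 and -0.24 (18 alternatives). In the RbpJk arm the median stayed between 0.02 and 0.13, and 1 gene passed, Esam, after dim probe sets were left out (adjusted p = 0.0354) or arrays were centred on their medians (0.0321). Leaving out single arrays gave 0 to 1, the 1 being Robo4 without RbpJk WT replicate 3. Under the other 15 of 17 alternatives Esam did not pass, and its change fell to 0.42 with the Xist class as a covariate. The change of Robo4 lay between 0.38 and 0.63 over 17 alternatives, of which it passed under 1. Averaged over both arms, 1 gene (Ehd3) passed with array weights and with robust variances, 2 (Ehd3 and Nrp1) without dim probe sets and after quantile normalization, and 0 to 1 with single arrays left out (Ehd3, -0.46, without RbpJk WT replicate 1, adjusted p = 0.0173). Between controls, 1 gene (Clec4g) passed without dim probe sets and after median centring. The difference between arms called 0 under all 21 alternatives.

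Counts at an unadjusted p under 0.05, followed after seeing the data, were less stable. With arrays of 1 Xist class, which leave 1 LKB1 KO and 1 RbpJk WT array that are assumed to vary like the other groups, 10 genes were lower in the LKB1 arm (3.92% of all genes) and 9 in the difference between arms. With single arrays left out, 11 to 18 genes were lower in the LKB1 arm (3.07% to 4.1% of all genes) and 11 to 18 in the difference. The 11 in the difference came without LKB1 WT replicate 2, RbpJk WT replicate 1 or RbpJk KO replicate 3. For the difference, the share of all genes in these fits was not computed. The rise of Selp in RbpJk KO livers kept its call under 16 of 17 alternatives. The exception was the t-test (1.35, adjusted p = 0.248), which called 0 of all 23185 genes. No paired analysis was possible because the replicate numbers follow accession order and pair no livers.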

Other observations

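More markers of other cells passed the test in the RbpJk arm than in the LKB1 arm. More of all genes passed there too, 1.68% against 0.962%. In the LKB1 arm the 11 macrophage markers all had changes below 0, with a median of -0.39, although 0 passed. In RbpJk KO livers the B cell precursor gene Igll1 fell by 1.46 on the log2 scale (SE 0.15, adjusted p = 0.000139), and 1 of 4 erythroid markers, the factor Klf1, fell by 0.66 (SE 0.14, adjusted p = 0.0274). Of the macrophage markers Cd5l rose by 0.70 ± 0.14 (adjusted p = 0.0237) and Cd68 by 0.57 ± 0.12 (adjusted p = 0.0224), while Adgre1 fell by 0.44 (SE 0.10, adjusted p = 0.0496). The other 8 macrophage markers did not pass the test. In LKB1 KO livers 1 of 8 stellate cell and fibroblast markers, Reln, fell by 0.55 (SE 0.11, adjusted p = 0.0297). In RbpJk KO livers its change was -0.31 ± 0.11 (adjusted p = 0.212), again with all KO arrays below all WT arrays. Averaged over both arms in limma, Reln (-0.43 ± 0.08, adjusted p = 0.00778) and Lrat (-0.44 ± 0.09, adjusted p = 0.0136) passed the test. In that average 5 of the 8 markers had changes above 0. Of 4 bile duct markers 0 passed in either arm, with Epcam at -1.11 ± 0.41 in RbpJk KO livers (adjusted p = 0.229). Its values were 3.82, 4.24 and 3.89 in RbpJk KO livers, against 6.53, 4.39 and 4.34 in RbpJk WT livers. The high value of 6.53 was that of RbpJk WT replicate 1, the array with the pancreatic enzyme. Of 2 lymphatic endothelial markers 0 passed in either arm, with Prox1, which hepatocytes also express, at -0.34 ± 0.09 in RbpJk KO livers (adjusted p = 0.102). The 7 pancreatic acinar markers had a median of -1.02 in the RbpJk arm, where RbpJk WT replicate 1 was high, and 0 passed.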
